A study of Homo sapiens with 12 samples.

Results

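Chromatin accessibility in U2OS cells labelled wild type was compared between the baselines of 2 sets of experiments. U2OS is a human osteosarcoma cell line of adherent, mesenchymal-type tumour cells, and the assay was ATAC-seq, which reads out where the transposase Tn5 can cut into open DNA. The members are 4 of the 12 samples and 3 of the 9 peak lists of the series. The first baseline, called the FOXA2-set wild type, has 2 biological replicates with a peak list each, of 19862 peaks (replicate 1) and 25088 peaks (replicate 2). The second, the SOX2-set wild type, has 2 replicates and 1 list of 110813 entries made for the group. All entries of the 3 lists on chromosomes 1 to 22 and X were merged where they shared at least 1 bp, which gave 118354 regions, and a region was called in a list that had an entry in it.

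The FOXA2 set also held cells with a doxycycline-inducible full-length FOXA2 (Tet-on FOXA2) and cells with an inducible FOXA2 lacking its CTD (Tet-on FOXA2dCTD), 2 samples with a list each. The SOX2 set also held cells with inducible SOX2 (Tet-on SOX2) and with an inducible fusion of SOX2 to the CTD of FOXA2 (Tet-on SOX2FOXA2CTD), 2 samples and 1 list each. Per the labels, the construct cells received 500 ng/ml of doxycycline over 4 days. The genotype and treatment fields of the wild types hold no value, but the shared protocol text, which every sample carries, mentions the drug, so whether wild-type cells were given it is not known. The title of the second baseline names the SOX2 cell line, and whether its cells lacked the construct or held it without being induced is not stated. All cells were grown in DMEM with 10% FBS.

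Open chromatin in a cell line falls into a few familiar kinds of place. Promoters of genes that every dividing cell uses lie open in most cell types and often carry binding sites for general factors such as NF-Y, Sp1, ETS proteins and NRF1. Enhancers, further from genes, are opened by factors particular to the cell type, in mesenchymal cells mainly AP-1, TEAD and RUNX proteins. Peak callers also return places where reads pile up for reasons of sequence copy number, such as centromeric satellite, chromosome ends and nuclear copies of mitochondrial DNA. FOXA2 is a pioneer factor of endoderm and liver, and SOX2 one of pluripotent and neural cells.

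The lists were not made alike, and this bears on every count here. The deposited −log10 p of each peak is the authors' and was used only to rank entries within a list, as a percentile in which the strongest entry stands highest. The lowest −log10 p was 3.44 in FOXA2-set replicate 1, 5.43 in FOXA2-set replicate 2 and 1.65 in the SOX2-set list. Replicate 1 covered 8.30 Mb of the genome and the SOX2-set list 72.5 Mb, with median widths of 378, 343 and 560 bp in the order above. Replicate 1 and the SOX2-set list had 2 mitochondrial peaks each and replicate 2 had 0. The SOX2-set list has the layout of an IDR comparison (irreproducible discovery rate) of a pair of inputs and was not limited by IDR: 48142 entries had a global IDR of at most 0.05. It gives a −log10 p of each input, but only for entries found in both, so it holds no calls per sample, and −log10 p values move with the depth of each library. The baselines were therefore compared by calls, without a test. Shares are given with Wilson 95% intervals, which cover counting error only, and read depth is unknown.

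The genes of the constructs were looked at first, as a check of the labels. FOXA2 lies on chromosome 20:22580998-22585490. FOXA2-set replicate 1 had a peak within the gene at 20:22581848-22582527, with a −log10 p of 9.08 (percentile 67.2) and a fold enrichment of 5.19. FOXA2-set replicate 2 had one at 20:22581827-22582860, with a −log10 p of 44.2 (percentile 98.1) and a fold enrichment of 14.7. All 4 FOXA2 construct lists had an entry at this place, from −log10 p 17.4 in full-length replicate 1 to 183 in full-length replicate 2, and the fusion list had one at 20:22581797-22582528 with a −log10 p of 6.58. The SOX2-set wild type and the SOX2 list had none there. Their entries in FOXA2 were near the gene's other end, at 20:22583822-22585189 (−log10 p 12.8) and 20:22584023-22585299 (−log10 p 10.9). The samples of the first baseline are therefore named by their label only, and what these cells carried was not tested. At SOX2, the SOX2-set wild type had 2 entries, of −log10 p 16.2 and 10.8. FOXA2-set replicate 1 had 1 peak, at 3:181712760-181713124 (−log10 p 11.3), and replicate 2 had none.

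A core of 10344 regions, 8.74% of all merged regions, was open in all 3 lists, and it was made up of promoters and distal sites in similar numbers. A gene start lay within 500 bp of 4743 of them (45.9%, interval 44.9 to 46.8), against 11.5% of all 118354 regions. A further 5176 (50.0%) were over 5000 bp from any start. Of the regions in both FOXA2-set lists, 95.7% (95.3 to 96.1) were also in the SOX2-set list. In the opposite direction, 9.36% (9.19 to 9.53) of SOX2-set regions were in both FOXA2-set lists. When each list was held to its strongest entries, as many as replicate 1 has, these shares became 76.1% and 36.1%.

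**Figure D1:**
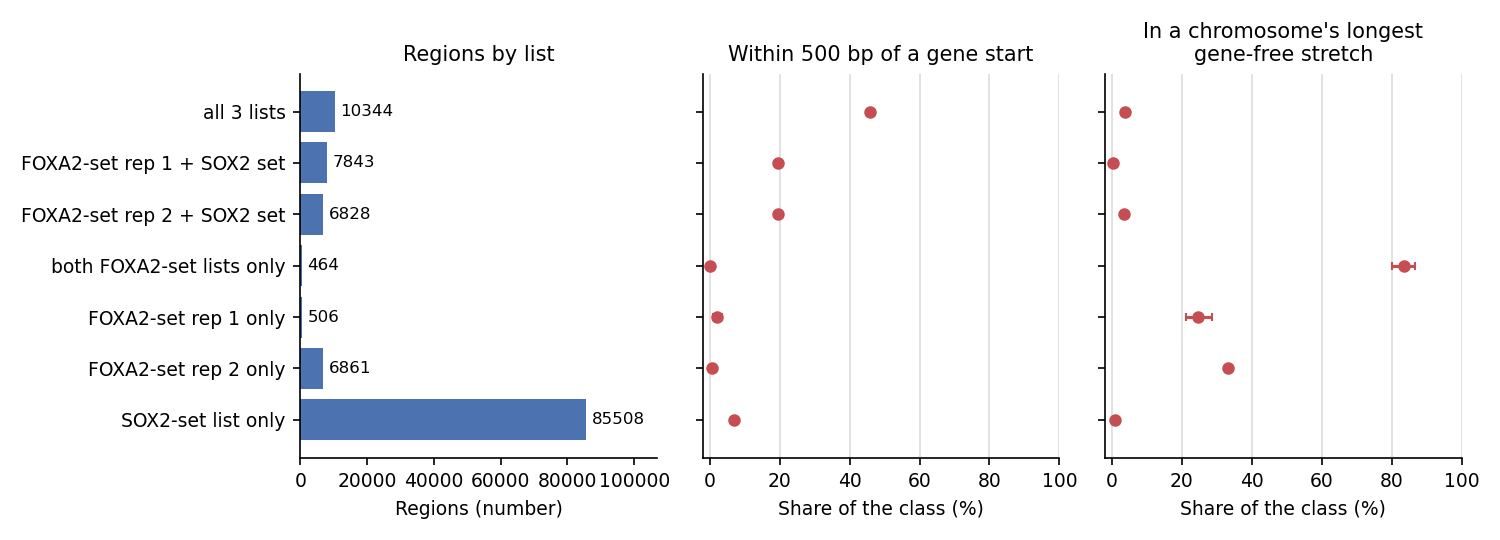
Merged wild-type regions by the lists that hold them: the number of regions (left, bars), the share within 500 bp of a gene start (centre, %) and the share inside the longest gene-free stretch of a chromosome (right, %). Points carry Wilson 95% intervals. Regions in all 3 lists lead in gene starts (45.9%), and regions of both FOXA2-set lists only lead in gene-free stretches (83.6%).

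The other regions divided unevenly. The SOX2-set list alone held 85508 (72.2%), both FOXA2-set lists and not the SOX2-set list 464 (0.392%), replicate 2 alone 6861 (5.80%) and replicate 1 alone 506 (0.428%). Replicate 1 shared 7843 (6.63%) with the SOX2-set list that replicate 2 lacked, and replicate 2 shared 6828 (5.77%) that replicate 1 lacked. The replicates of the FOXA2-set wild type overlapped each other less than replicate 1 overlapped the SOX2-set list. Entries of that list were wider (median 560 bp, against 378 and 343 bp over the full lists), and width was not evened out in these overlaps. With the lists held to equal numbers as above, 48.1% of the peaks of replicate 1 (47.4 to 48.8) overlapped replicate 2. The share that overlapped the SOX2-set list was 62.7% (62.1 to 63.4). For replicate 2 the values were 46.7% with replicate 1 and 46.0% with the SOX2-set list. With the repeated places described below left out, which leaves 18849 peaks of replicate 1 beside 19862 of each other list, they were 50.6% and 65.8% for replicate 1 and 46.9% and 51.3% for replicate 2.

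The strongest shared regions were ranked by the lowest of their 3 within-list percentiles. None of the 12 highest lay at a start of a protein-coding gene. The first was 3:93470138-93471010, in the longest gene-free stretch of chromosome 3, with a −log10 p of 213 in FOXA2-set replicate 1 and 623 in replicate 2, the highest of each list, at fold enrichments of 16.4 and 109. It also ranked near the top of the SOX2-set list. Another 6 of the 12 lay within 20000 bp of the first or last entry of a chromosome. They were at 5:9909-11894, 10:9828-10597, 12:9810-10658, 12:133264737-133265477, 18:80262050-80263384 and X:156030016-156030922. The strongest of these in the SOX2-set list, at the far end of chromosome 12, had −log10 p values of 97.7, 365 and 137 in the 3 lists. A pair of regions lay at MTRNR2L8 on chromosome 11 and MTRNR2L2 on chromosome 5, members of a family of nuclear copies of the mitochondrial 16S rRNA gene. MTRNR2L8 had −log10 p values of 122, 359 and 66.7, and MTRNR2L2 had 126, 225 and 60.7. Of the 13 annotated MTRNR2L genes, 7 held a region of all 3 lists, among them MTRNR2L12 on chromosome 3 at 77.1, 210 and 32.5. The last 3 regions were at 17:22521121-22521713, just before MTRNR2L1 (17:22523415-22524663), at 13:109423888-109424585, 215883 bp from MYO16, and at 1:236096813-236097603, 31723 bp from NID1. All 12 had an entry in each of the 6 construct lists as well.

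Outside gene-free stretches, chromosome ends and MTRNR2L genes, the strongest shared regions at gene starts belonged to genes of varied cellular roles. This ranking was added after the values above were seen. The highest was at the start of UMAD1 and overlapped RPA3 (7:7639941-7641577), with −log10 p values of 31.0 in replicate 1, 84.6 in replicate 2 and 82.3 in the SOX2-set list. RPA3 encodes a subunit of replication protein A, which coats single-stranded DNA. Next came G3BP1 (5:151770748-151772389), which encodes an RNA-binding protein that nucleates stress granules, at 27.1, 62.2 and 64.2. The shared start of ALDH6A1 and LIN52 (14:74083959-74085481) had 43.8, 56.5 and 73.3, and LIN52 encodes a subunit of the cell-cycle complex DREAM. GSK3B, a protein kinase of Wnt and insulin signalling, had 26.9, 56.5 and 63.1. SKA2 and PRR11 (17:59154433-59155994), which start back to back, had 36.8, 49.6 and 52.2. SKA2 encodes a protein that ties kinetochores to spindle microtubules. The others of the first 12 were PPP2R5E, RAB30, ZNF33B, WDR89, RIMOC1, GLCCI1 and GNA12. The lowest percentile of any of the 12 in any list was 98.46, at GNA12 in replicate 1.

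Promoter sequence is shown for 4 of these genes and for 2 genes whose starts were open in the SOX2-set list only, because the promoters of the shared regions had a letter pattern in common. The sequences are the 250 bases before the start, from RefSeq on GRCh38.p14, read along the gene 5′ to 3′. Capitals mark the CCAAT box bound by NF-Y (CCAAT, or ATTGG on the opposite strand) and the GC box bound by Sp1 (GGGCGG or CCGCCC). The windows are 5:151771704-151771953 for G3BP1 (plus strand), 14:63641872-63642121 for WDR89 (minus), 17:59155187-59155436 for SKA2 (minus), 7:2844309-2844558 for GNA12 (minus), 7:105522272-105522521 for PUS7 (minus) and 7:116671946-116672195 for MET (plus).
G3BP1, all 3 lists: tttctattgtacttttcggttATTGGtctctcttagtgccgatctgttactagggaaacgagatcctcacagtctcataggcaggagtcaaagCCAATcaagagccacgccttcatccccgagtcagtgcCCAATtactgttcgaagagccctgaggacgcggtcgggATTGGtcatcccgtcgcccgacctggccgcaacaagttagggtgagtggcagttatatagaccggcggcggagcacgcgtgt
WDR89, all 3 lists: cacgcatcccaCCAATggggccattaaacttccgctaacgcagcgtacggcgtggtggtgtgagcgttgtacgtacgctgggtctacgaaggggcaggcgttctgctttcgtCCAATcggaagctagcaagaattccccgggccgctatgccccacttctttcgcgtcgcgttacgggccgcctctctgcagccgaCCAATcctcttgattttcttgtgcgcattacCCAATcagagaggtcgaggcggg
SKA2, all 3 lists: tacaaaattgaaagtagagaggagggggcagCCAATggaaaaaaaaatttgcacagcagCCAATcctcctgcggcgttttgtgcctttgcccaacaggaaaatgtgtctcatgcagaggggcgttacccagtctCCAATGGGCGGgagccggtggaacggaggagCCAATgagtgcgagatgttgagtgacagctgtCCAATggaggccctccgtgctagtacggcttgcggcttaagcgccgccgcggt
GNA12, all 3 lists: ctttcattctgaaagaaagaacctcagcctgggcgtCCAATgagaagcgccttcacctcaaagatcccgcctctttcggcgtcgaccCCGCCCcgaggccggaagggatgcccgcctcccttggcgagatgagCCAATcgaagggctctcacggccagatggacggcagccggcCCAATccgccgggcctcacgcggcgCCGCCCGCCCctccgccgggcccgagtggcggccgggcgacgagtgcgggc
PUS7, SOX2-set list only: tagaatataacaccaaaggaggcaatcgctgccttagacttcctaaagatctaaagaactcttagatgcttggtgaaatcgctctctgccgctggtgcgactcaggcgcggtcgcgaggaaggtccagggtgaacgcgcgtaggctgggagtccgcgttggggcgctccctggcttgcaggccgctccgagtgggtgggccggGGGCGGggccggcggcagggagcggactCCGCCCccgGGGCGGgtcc
MET, SOX2-set list only: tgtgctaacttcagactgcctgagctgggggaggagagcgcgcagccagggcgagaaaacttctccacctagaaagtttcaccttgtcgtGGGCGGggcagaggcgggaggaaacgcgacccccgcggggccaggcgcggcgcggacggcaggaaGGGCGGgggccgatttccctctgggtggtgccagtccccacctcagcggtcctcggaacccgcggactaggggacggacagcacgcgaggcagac
The printed stretches hold 4 CCAAT boxes in G3BP1, 4 in WDR89, 5 in SKA2 and 3 in GNA12, and 0 in PUS7 and in MET. These genes were chosen for that contrast after their values were seen. Other shared genes among the 12, such as GSK3B, ZNF33B and RIMOC1, hold 1 box in the same stretch, as do RASL11B and RNF14 of the SOX2-set list only.

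The pattern was then counted over all promoter windows of the RefSeq table, which run from 250 bases before to 50 after the start. At least 1 window of each of the 12 strongest shared gene-start regions held a CCAAT box on either strand, and 8 of the 12 a GC box. Of the 6 regions with a window among the 10 strongest of the SOX2-set list only, 3 held a CCAAT box and 5 a GC box. Of the 22131 windows in all, 34.6% held a CCAAT box. Among 5489 windows with a peak within 500 bp in all 3 lists the share was 45.3% (44.0 to 46.7), among 5923 with a peak in the SOX2-set list only it was 26.1% (25.0 to 27.2), and among 7607 with a peak in no list it was 34.7% (33.7 to 35.8). At least 3 boxes were found in 8.67%, 1.33% and 2.14% in the same order. The classes differ in base composition, with median GC contents of 64.3%, 67.3% and 53.0%. Within windows of 60 to 70% GC, the shares with a CCAAT box were 46.8% (44.9 to 48.7), 26.5% (24.5 to 28.6) and 27.7% (25.6 to 30.0).

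Other promoter motifs followed different orders (shares are given for the same classes, then for all windows). The ETS site CCGGAAGT stood in 10.5% of windows open in all 3 lists, 3.95% of those in the SOX2-set list only and 0.868% of those in none, beside 5.34% of all. The NRF1 site GCGCATGC was in 6.78%, 3.28% and 1.22% (all windows 3.74%), the ZBTB33 site CTCGCGAG in 2.86%, 1.15% and 0.263% (1.38%), and the CRE TGACGTCA in 3.66%, 2.30% and 0.881% (2.26%). The GC box was nearly as frequent in the SOX2-set-only windows as in the shared ones, at 67.5% against 73.6%, with 29.0% in windows of no list and 56.3% of all. AP-1 sites (TGANTCA) were in 4.01%, 6.09% and 8.08% (all 6.15%), and the SOX site CATTGT in 5.08%, 6.52% and 12.6% (all 8.16%). The forkhead site TGTTTAC was in 1.99%, 2.60% and 3.86% (all 2.85%). The CTCF core AGGGGGC was in 19.1%, 22.2% and 11.7% (all 17.5%). TEAD sites (CATTCC) were in 10.7%, 10.8% and 15.1% (all 12.2%), and RUNX sites (TGTGGT) in 535 of the 5489, 533 of the 5923 and 1153 of the 7607 windows (all 11.3%). Within windows of 60 to 70% GC, ETS sites kept their order, at 11.1%, 5.16% and 1.14%, and so did the GC box, at 78.0%, 69.1% and 52.6%. The CTCF core, at 19.7%, 20.6% and 20.5%, and the SOX site, at 5.11%, 5.62% and 5.99%, did not differ there beyond their intervals. Nor did the forkhead site, at 1.68%, 2.12% and 1.89%. AP-1 sites were then in 3.70% (3.04 to 4.49), 5.62% (4.63 to 6.80) and 4.48% (3.57 to 5.61), so that windows in no list no longer ranked highest. Motifs were searched on both strands as exact letters, the CTCF core can share letters with a GC box, and a match describes the sequence only. Distal regions could not be searched, since no genome sequence was used.

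**Figure D2:**
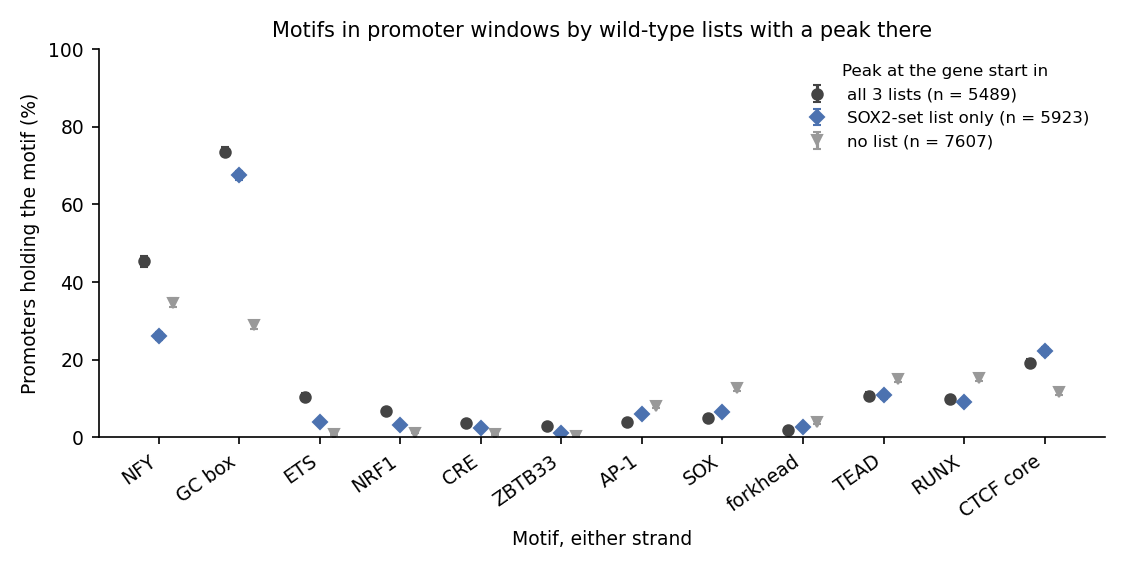
Share of RefSeq promoter windows that hold each motif on either strand (vertical axis, %), for windows with a wild-type peak within 500 bp in all 3 lists, in the SOX2-set list only and in no list. Bars are Wilson 95% intervals. The CCAAT box (NFY in the plot) stands at 45.3% in the shared class and 26.1% in the SOX2-set-only class, and the GC box differs less.

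The strongest shared distal regions outside the repeated places, again a ranking added afterwards, included the regions on chromosomes 17, 13 and 1 named above and several near duplicated gene families. A region 45679 bp from POTEM on chromosome 14 had −log10 p values of 34.4, 77.0 and 53.3, and one 46214 bp from POTEH on chromosome 22 had 23.9, 87.6 and 45.3. A region 50532 bp from DUX4 near the end of chromosome 4 had 59.1, 97.0 and 43.4. The POTE and DUX4 genes have near-identical copies elsewhere, so the placing of reads there is uncertain. Among distal regions away from such families were 14:61754862-61755998, 6422 bp from SNAPC1, at 22.5, 90.7 and 62.5, and 2:148881504-148882114, within KIF5C, at 49.9, 108 and 39.3. Leaving out repeated places removes only gene-free stretches, chromosome ends and MTRNR2L genes. Whether the regions of this ranking hold repeated sequence of another kind was not looked up. SNAPC1 encodes a subunit of the complex that starts transcription of small nuclear RNAs, and KIF5C a kinesin motor.

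Gene starts were described next, by lists of genes chosen for a mesenchymal tumour line. A start is the RefSeq start for 15811 of 19817 protein-coding genes, and either end of the gene for the others, in which case a peak may lie at the far end. Of all 19817 genes, 26.6% had an entry within 500 bp in all 3 lists, 27.1% in the SOX2-set list only, 0% in both FOXA2-set lists only and 31.3% in none. By list, 34.6% had one in FOXA2-set replicate 1, 33.6% in replicate 2 and 68.6% in the SOX2-set list. Of 20 housekeeping genes, 15 (75.0%) had an entry in replicate 1, 15 in replicate 2 and 19 in the SOX2-set list, and 12 had one in all 3. EEF1A1, a translation elongation factor, had −log10 p values of 17.9, 42.9 and 42.6. RPL4, a ribosomal protein, had 12.4, 19.7 and 16.1. ACTB and GAPDH were called in replicate 2 and the SOX2-set list and not in replicate 1. Entries of ACTB were looked for at either gene end.

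In the TEAD and YAP pathway, the co-activators YAP1 and WWTR1 drive growth genes through TEAD factors. All 14 of its listed genes had a start entry in the SOX2-set list, against 68.6% of all genes. FOXA2-set replicate 2 had 8 (57.1%, against 33.6% of all genes) and replicate 1 had 5 (35.7%, near the 34.6% of all genes). These are small counts. The 5 in all 3 lists (35.7%, against 26.6% of all genes) were TEAD4 (either gene end), WWTR1, CCN2, ANKRD1 and LATS1. ANKRD1, a target of the pathway, had −log10 p values of 11.5, 32.6 and 33.4. WWTR1 itself had 9.49, 7.85 and 45.8, which is percentile 99.4 of the SOX2-set list and percentile 12.8 of replicate 2. YAP1 and TEAD1 had entries in the SOX2-set list only, of 11.3 and 21.1. Of 11 AP-1 genes, 3 were called in all 3 lists, namely JUN (16.3, 23.0 and 28.0), FOSL2 (6.63, 21.9 and 30.0) and FOS (9.08, 9.61 and 3.45), and 8 in the SOX2-set list. These shares, of 27.3% in each FOXA2-set list and 72.7%, are near those of all genes.

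Osteoblast genes were called in the SOX2-set list about as often as genes at large. Of 18 genes, 13 had a start entry there (72.2%, near the 68.6% of all genes). FOXA2-set replicate 1 had 4 (22.2%, against 34.6% of all genes) and replicate 2 had 2 (11.1%, against 33.6%), which are small counts. SPARC, the matrix protein osteonectin, was called in all 3 lists, at 6.93, 9.61 and 34.6. TNFRSF11B, the decoy receptor osteoprotegerin, was too, at 9.95, 16.5 and 31.5, from either gene end. RUNX2, the master regulator of the lineage, had 5.25 in replicate 1 and 12.8 in the SOX2-set list and no entry in replicate 2. COL1A1 (30.2), MSX2 (18.4), SPP1 (15.6), SP7 (12.2) and BGLAP (10.4) were called in the SOX2-set list only, COL1A1 and SP7 from either gene end. ALPL, IBSP, DLX5, PHEX and DMP1 had no entry in any of the 3, which is 27.8% of the 18 and near the 31.3% of all genes. Of 14 mesenchymal genes, 10 (71.4%) were called in the SOX2-set list and 5 (35.7%) in replicate 1, both near the share of all genes, and 3 (21.4%, against 33.6% of all genes) in replicate 2, and ZEB1 and SNAI2 (the latter from either gene end) in all 3. VIM, the intermediate filament of mesenchymal cells, had 8.05 in replicate 1 and 18.1 in the SOX2-set list.

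Markers of other cell types were read beside the same background. The SOX2-set list called 4 of 11 epithelial, 3 of 10 blood, 4 of 11 liver and 1 of 10 pluripotency genes, beside 68.6% of all genes. CDH1, GRHL2, PTPRC, ALB, POU5F1 and NANOG had no entry in any of the 3 lists. The members called in the SOX2-set list included CD3E (27.2), KRT18 (22.7), TF (18.8), SPI1 (18.5), KRT8 (17.2), SOX2 (16.2) and APOA1 (16.1), of which CD3E, KRT18, SPI1 and APOA1 were looked for at either gene end. None of these 4 groups had a gene called in all 3 lists. In the FOXA2-set lists the only calls among them were SPI1 in replicate 2 (15.4) and HNF4A in replicate 1 (5.46). With 7 of 10 called in the SOX2-set list, neural progenitor genes were near the share of all genes, and OLIG2 was in all 3 lists at 9.62, 21.9 and 30.3, from either gene end. Of 8 tumour suppressor and telomere genes, ATRX, a chromatin remodeller, had an entry in all 3 lists (7.55, 7.85 and 28.2, either gene end). TERT, RB1 and CDKN2A had none, which is 37.5% of the 8, beside 31.3% of all genes. FOXA1, FOXA2, SOX2 and SOX3 had start entries in the SOX2-set list only.

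**Figure D3:**
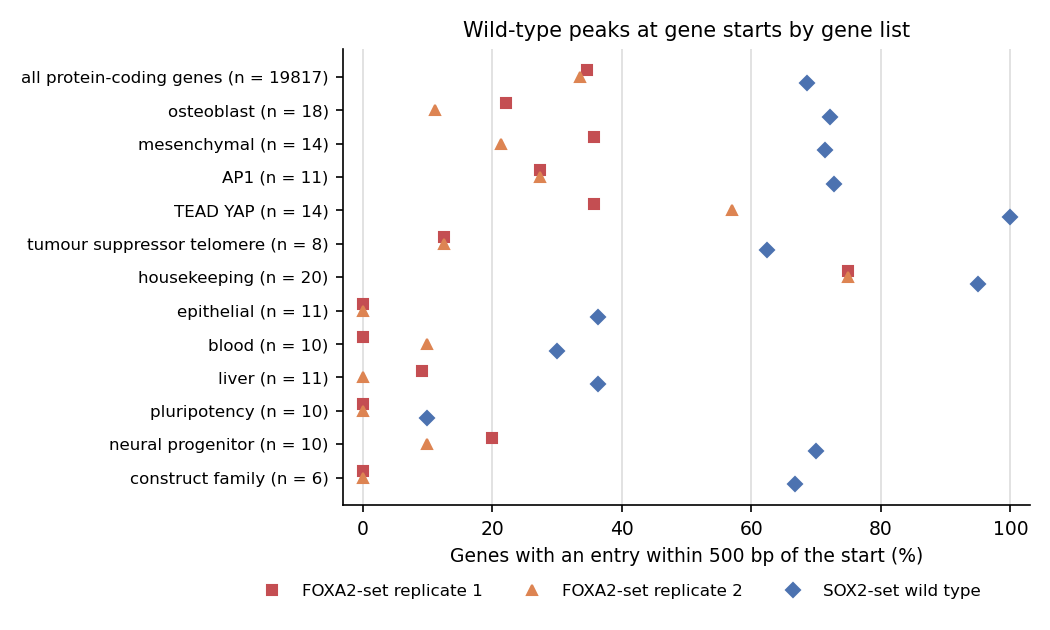
Share of the genes of each list with an entry within 500 bp of the start (horizontal axis, %), in each of the 3 wild-type lists. Housekeeping genes lie at 75.0% in both FOXA2-set lists, against 34.6% and 33.6% of all genes. The 14 TEAD and YAP genes are all called in the SOX2-set list, against 68.6% of all genes.

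The regions open in both FOXA2-set lists and not the SOX2-set list were few and lay mostly in long stretches without genes. Of the 464, 388 (83.6%, interval 80.0 to 86.7) were in the longest gene-free stretch of their chromosome, against 3.46% of all regions and 3.81% of the shared class. On many chromosomes these stretches include the centromere, which in hg38 is filled with modelled satellite sequence. On chromosomes 13, 14, 15, 21 and 22 the longest stretch begins at position 1, and centromere positions were not looked up separately. Chromosome 13 had 134 and chromosome 1 had 117 of the 388, chromosome 10 had 30, chromosome 17 had 23 and chromosome 4 had 15. The strongest was 1:122829779-122830643, with a −log10 p of 31.1 in replicate 1 and 90.7 in replicate 2. The second was 13:17170316-17171061, at 25.9 and 157. None of the 464 was within 500 bp of a gene start (Wilson interval 0 to 0.821%). This depends on how the SOX2-set list is bounded. At an IDR of at most 0.05 the class grew to 1585 regions with 23.7% at gene starts, and at equal numbers of entries to 2247 with 22.2%.

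Repeated places also weighed differently on the lists themselves. The gene-free stretches held 4.93% of the peaks of replicate 1, 13.2% of those of replicate 2 and 1.24% of the SOX2-set entries. Of the 6861 regions of replicate 2 alone, 2282 (33.3%) lay in them. Whether the lists had been filtered for such places by the authors is not given in the sources used here, and its part in these counts was not tested.

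Outside the repeated places as defined above, 75 regions were shared by both FOXA2-set lists and absent from the SOX2-set list. The definition does not remove every place of that kind. The 75 still include 9:80565454-80566023 at the mitochondrial pseudogene MTND2P9, and 22:11212870-11213430, which is 4314762 bp from the nearest protein-coding gene. They also include 14:16093116-16093643, just beyond the longest gene-free stretch of chromosome 14, which ends at 16024657. The median percentile of the 75 was 51.7 in replicate 1 and 80.8 in replicate 2. The first by rank was 1:29723292-29723764, 396492 bp from PTPRU, with −log10 p values of 19.4 and 60.8. It was followed by a region 36182 bp from HGSNAT (16.5 and 69.5), one 171433 bp from CRIM1 (17.9 and 30.1) and 4:1427431-1429341, 20989 bp from NKX1-1 (14.1 and 46.9). The next were near LMLN, within PTPRN2, ARHGEF18 and ELOVL7, near VGLL3 and within FAM168A.

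These 75 regions were then looked up in the construct lists, which had no part in choosing them. The 75 include the place within FOXA2 itself described above, 20:22581827-22582860. Full-length FOXA2 had an entry at 85.3% of the 75 in either replicate, and the CTD deletion at 88.0% (replicate 1) and 77.3% (replicate 2). Over all 114167 regions outside repeated places these lists held 40.7%, 27.2%, 31.6% and 47.6%, but most of those regions were called in the SOX2-set wild type only. Of the 9922 regions of all 3 wild-type lists outside repeated places they held more than of the 75, at 92.9%, 88.6%, 93.1% and 97.4%. The SOX2 list had an entry at 30.7% of the 75 (21.4 to 41.8), against 65.5% of the 114167, and the fusion list at 38.7% (28.5 to 50.0), against 68.9%. For the 9922 these were 98.8% and 99.3%. The FOXA2 constructs and these wild types come from the same set, so that the set and the construct cannot be told apart in these shares. An entry in all 4 FOXA2 construct lists and in neither SOX2-set construct list was found for 26 of the 75 (34.7%, 24.9 to 45.9). Outside repeated places, it was found for 125 of the 84817 regions (0.147%) of the SOX2-set list only. These classes were chosen by opposite calls in the wild types of the sets, so the gap between them is partly set by that choice. The share of this pattern over all 114167 regions is not given here. Of the 26, 10 had a lowest percentile of 98.2 or more over the 4 FOXA2 construct lists.

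These 10 ranked near the top of the FOXA2 construct lists and at very different places in the wild-type lists. They were picked for their construct ranks after the values were seen and serve as a description. The region 11:122016524-122018116, 97224 bp from BLID, had a −log10 p of 10.1 (percentile 75.8) in wild-type replicate 1 and 98.6 (percentile 99.5) in replicate 2. Its values were 65.8 and 353 with full-length FOXA2 and 108 and 92.6 with the CTD deletion. The region 18:78276262-78276683, 703135 bp from SALL3, stood at percentile 3.48 of wild-type replicate 1 (−log10 p 4.49) and 58.0 of replicate 2 (12.4). With full-length FOXA2 it had 43.9 and 107, and with the CTD deletion 68.6 and 45.3. The region 3:171502922-171503278, 42514 bp from TNIK, had 6.00 and 17.5 in the wild types against 37.0, 113, 79.4 and 36.1 in the same 4 construct lists. The region 4:32399191-32399700, 1252391 bp from PCDH7, had 4.82 and 16.5 against 25.3, 67.1, 45.4 and 22.3. By the way they were picked, none had an entry in any of the 3 lists of the SOX2 set. Within DPP10, 2:114834141-114835318 had 7.28 and 15.4 against 29.4, 49.6, 34.8 and 22.4. Values of −log10 p depend on the depth of each library and are set side by side here without a fold.

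The replicates of the FOXA2-set wild type differed in this respect. Among regions outside repeated places called in replicate 2 alone, 1379 of 4564 (30.2%, 28.9 to 31.6) had an entry in all 4 FOXA2 construct lists and in neither SOX2-set construct list. Among those called in replicate 1 alone it was 8 of 380 (2.11%, 1.07 to 4.10). By median, these 380 regions stood near the bottom of their list. They ranked lower there than the 4564 did in the list of replicate 2, and they were shorter. The classes were not matched for strength or length, and the part of either in this gap was not tested. The regions of replicate 2 alone had an entry in 62.1% and 71.0% of cases with full-length FOXA2 (replicates 1 and 2) and in 58.5% and 61.2% with the CTD deletion, against 19.7% with SOX2 and 23.8% with the fusion. The shares of all 114167 regions in these lists are those given above. The list of full-length replicate 2 resembles that of wild-type replicate 2 in having no mitochondrial peak and a high lowest −log10 p (5.22 and 5.43). The other 3 FOXA2 construct lists had 2 such peaks and a lowest −log10 p of 2.01 each. Thresholds and filters of the lists are not known, and the part of list making in these shares was not tested.

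**Figure D4:**
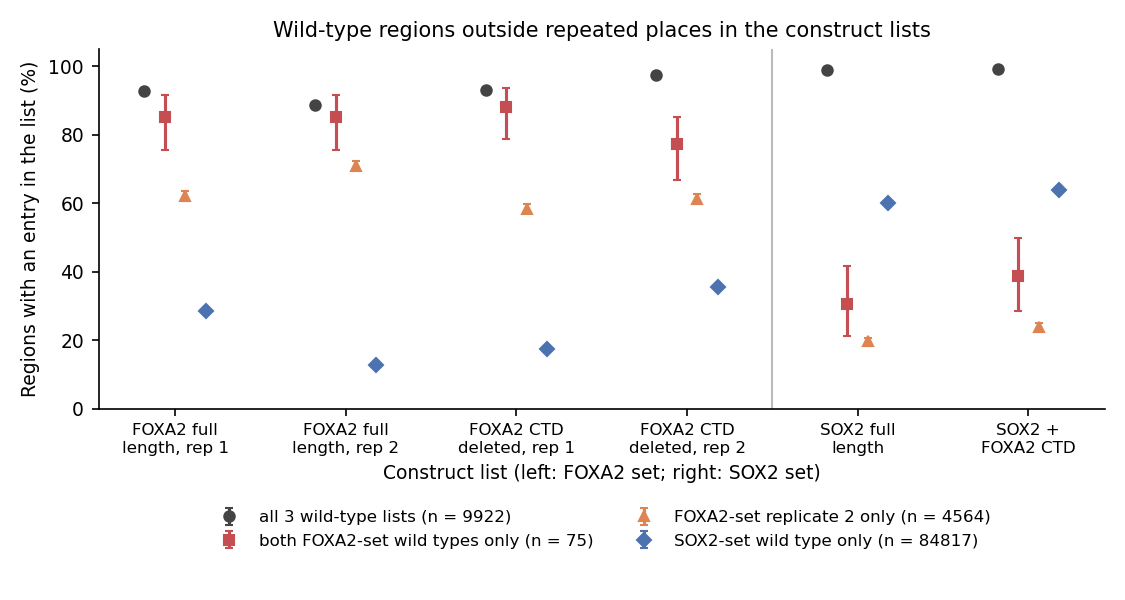
Share of wild-type regions outside gene-free stretches, chromosome ends and MTRNR2L genes that have an entry in each construct list (vertical axis, %), by class of wild-type region, with Wilson 95% intervals. Regions of both FOXA2-set wild types only lie between 77.3% and 88.0% in the 4 FOXA2 construct lists and at 30.7% and 38.7% in those of the SOX2 set, and regions of the SOX2-set wild type only lie higher in the latter.

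The 85508 regions open in the SOX2-set list only were mostly weak and distal. A gene start lay within 500 bp of 6.92% (6.75 to 7.09), and 85.3% were over 5000 bp from any start, beside 81.3% of all regions. Their median percentile within the list was 41.4, against 93.3 for the regions of all 3 lists. An IDR of at most 0.05 was reached in 32.6% of them and in 88.8% of the shared regions. In the construct lists of their own set, 60.1% had an entry with SOX2 and 63.8% with the fusion, and in those of the FOXA2 set from 12.7% (full-length replicate 2) to 35.3% (CTD deletion replicate 2). All 118354 regions had 64.8% and 67.7% in the lists of the SOX2 set and from 28.4% to 47.2% in those of the FOXA2 set, above the shares of this class in each list. The share of SOX2-set regions found in the FOXA2-set wild types was lower at lower ranks. At percentiles 90 to 100 of the list, 76.3% were in replicate 1, 68.8% in replicate 2 and 58.7% in both. At percentiles 80 to 90 the values were 37.1%, 29.3% and 16.3%, and at 0 to 10 they were 2.85%, 4.52% and 1.48%. The share at gene starts in the same 3 groups was 45.8%, 22.4% and 4.80%.

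**Figure D5:**
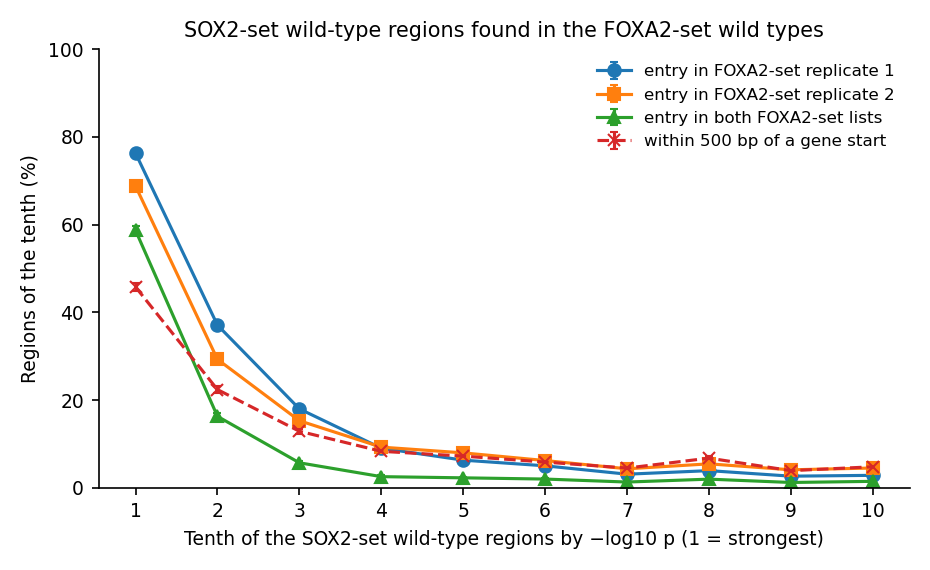
SOX2-set wild-type regions split into 10 groups by −log10 p (horizontal axis, 1 is the strongest), with the share of each found in FOXA2-set replicate 1, in replicate 2 and in both, and the share within 500 bp of a gene start (vertical axis, %; bars are Wilson 95% intervals). The share in both FOXA2-set lists is 58.7% in the strongest group and 1.48% in the weakest.

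Strong entries were few among the regions of the SOX2-set list only. Of the 85508, 1500 (1.75%) were at percentiles 90 to 100 of the list. A gene start lay within 500 bp of 460 of these (30.7%). The SOX2 list held 1421 of the 1500 (94.7%) and the fusion list 1473 (98.2%). At least 1 FOXA2 construct list held 1358 (90.5%), and all 4 held 452 (30.1%). Of all 118354 regions, 38.3% were in no FOXA2 construct list and 17.4% were in all 4. Most of the 1500 were thus called in at least 1 list of the other set. By rank, 7 of the first 10 were at gene starts. The highest of these was PUS7 (7:105521337-105522601), which encodes a pseudouridine synthase of RNA, with a −log10 p of 44.0. PARM1 had 43.2, the amino acid transporter SLC36A4 42.6, ARHGAP20 42.2, RASL11B 39.8, the ubiquitin ligase RNF14 39.1, and MET, the receptor of hepatocyte growth factor, 39.0. In the FOXA2 construct lists the start of MET had −log10 p values of 7.28 and 10.5 with full-length FOXA2 and 4.10 and 8.56 with the CTD deletion, and PUS7 had 12.1, 14.5, 6.84 and 17.0. The other 3 of the 10 were at 12:30677-32016 by the pseudogene WASH8P (47.4), at 7:63789348-63790662 (46.8) and within XRCC4 at 5:83368243-83368926 (38.8).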

How the data were processed

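ATAC-seq peak lists of U2OS samples were used as deposited, with positions on hg38 (1-based here). The submitters' processing notes name FastQC 0.10.1, Trim Galore, Bowtie2 2.4.4, SAMtools 0.1.18, MACS2 and deepTools 2.4.1; duplicate handling, thresholds and filters are not given in the sources used here. FOXA2-set lists have the MACS2 layout, 1 per sample; SOX2-set lists have the IDR layout, 1 per group, taken here as made from the group's samples. The authors deposited a fold enrichment (a ratio, in the FOXA2 set only), −log10 p, and a score that was not used to rank. In IDR lists the deposited −log10 p is the lower of both inputs. Each entry also has the value of both inputs, but the list holds only entries found in both. The baselines were compared by calls, with no test, and read depth is unknown.

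Entries were merged, called and ranked in Python 3.11.15 (numpy 2.4.6, pandas 2.3.3, scipy 1.17.1), after a check on simulated lists. Genes, starts and promoter sequence came from RefSeq (GRCh38.p14). Gene-free stretches are the longest interval of each chromosome without an annotated RefSeq gene. Named regions are the 12 shared, 10 shared distal and 10 of each baseline's own with the highest lowest percentile; rankings outside repeated places, and the regions compared with FOXA2 construct ranks, were chosen after values were seen. Members, gene lists and motifs were chosen with earlier results of these data known. Alternatives tried were an IDR limit, equal numbers, a common −log10 p threshold, larger overlap, summit windows, a 1000 bp distance and leaving out replicates.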

Additional observations from a re-analysis of the deposited data

How the results depend on the processing

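No paired analysis was possible because no result comes from a test and the SOX2-set list holds no calls per sample. Regions of all 3 lists numbered 9182 at an IDR of at most 0.05, 7152 at equal numbers, 8799 at a common −log10 p of 5.43, 9670 in summit windows and 9922 without repeated places, all within 1.5 times of 10344, but 1578 where a peak had to cover 50% of a region. Regions of both FOXA2-set lists only, 464 as reported, numbered 1585, 2247, 1140 and 716 under the first 4 of these settings and 75 without repeated places. Regions of the SOX2-set list only, 85508 as reported, numbered 27862 at the IDR limit, 6117 at equal numbers and 36055 at the common threshold.

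The share of regions of both FOXA2-set lists that were also in the SOX2-set list, reported as 95.7%, was 85.3% at the IDR limit, 76.1% at equal numbers, 88.5% at the common threshold, 82.1% with 50% coverage, 93.1% in summit windows and 99.2% without repeated places. The share of SOX2-set regions in both FOXA2-set lists, reported as 9.36%, was 19.1%, 36.1%, 15.7%, 1.43%, 8.73% and 9.09% in the same order. The share at gene starts became 47.3% (all 3 lists), 23.7% (FOXA2-set lists only) and 11.6% (SOX2-set list only) at the IDR limit, and 52.2%, 22.2% and 24.3% at equal numbers. Within 1000 bp of a start it was 8.23% for the SOX2-set list only.

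With 1 FOXA2-set replicate left out, regions in all lists that remained in use numbered 17177 (without replicate 1) and 18241 (without replicate 2), and those of the FOXA2 set only 7329 and 1015. The first of the shares above was then 70.1% and 94.7%, and the second 15.5% and 16.5%. Shares at gene starts were 35.4% and 34.4%, 0.546% and 0.985%, and 7.99% and 7.86% for the 3 classes. Genes called in all 3 lists went from 0 to 1 in the epithelial list and from 0 to 2 among FOXA and SOX genes within 1000 bp. Of the 12 strongest shared regions, 12 were named by mean rank and 7 by fold enrichment or by −log10 p in the FOXA2-set lists alone. Of 59 named regions, 59 kept their calls in the lists in use under each planned setting except 50% coverage, with 44, and all 42 outside repeated places did when those were left out. The named regions were picked for high ranks, and the IDR, equal-number and common-threshold settings only take entries out. Their kept calls were thus largely set by that choice and do not measure stability. Apart from the coverage rule's own construction, the cause of the changes between settings was not tested, and read depth, which is unknown, limits all of them.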
